A study of Homo sapiens with 12 samples.

Results

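The DNA replication and S phase genes are 45 human genes, listed by name, whose products license origins, open and copy DNA, supply deoxynucleotides and pack the new strands. Every probe that the platform annotation assigns to a member was taken from the non-normalized intensity table, on every array. The members had 68 probes. The detection p-value sets a probe against the array's own negative controls, and probes below 0.01 in both replicates of any group were retained. This left 63 probes and 43 members among the 10970 genes tested. The members without a kept probe were GINS1, a subunit of the GINS complex, whose probe was detected on 2 of the 12 arrays, and CCNE2 (cyclin E2), whose probe was detected on 0. A gene with several kept probes is represented by the brightest on average. Levels are log2 normalized intensities, and a level of one probe cannot be set against that of another.

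The cells were JIMT1, an established HER2+, ER- and PR- breast cancer cell line with epithelial-like growth. The study asked how gene expression in culture models relates to that in tumours. There were 6 groups with 2 arrays each: monolayer culture on plastic for 7 days (2D7d), culture on top of growth factor reduced Matrigel for 4 or 7 days (MG4d, MG7d), culture on polyHEMA, a coating to which cells cannot attach, for 4 or 7 days (PH4d, PH7d), and xenografts taken 43 days after cells in Matrigel were injected into fat pads of mice (BALB/C-nude). The labels name no drug and no genetic change for any group. Matrigel was dissolved with Dispase before RNA was isolated, and xenografts hold mouse host cells whose RNA meets human probes. The paper states that Matrigel cultures held less serum than 2D and polyHEMA cultures, so Matrigel and serum cannot be told apart. The labels call the samples of a group biological replicates and do not say whether they came from separate plates or mice, so the p-values measure the spread between these samples. In bulk RNA, fewer cells in S phase and less RNA per cell cannot be told apart.

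DNA replication starts in G1, when the origin recognition complex, CDC6 and CDT1 load the MCM2 to MCM7 helicase on origins. In S phase CDC45 and GINS join the helicase, polymerase alpha with primase lays down primers, and polymerases delta and epsilon extend them with the PCNA clamp, which replication factor C loads. Ribonucleotide reductase and thymidylate enzymes make the precursors, and E2F transcription factors drive many of these genes as cells enter S phase, which is why their RNA is widely read as a sign of proliferation.

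The promoter windows of these genes carry E2F letters far more often than those of other genes. Stretches are shown from 5 called members, chosen among those that hold such letters. MCM6, POLA1 and RFC3 were called higher than 2D7d in MG4d, E2F1 lower in MG7d and POLA2 lower in xenografts. The stretches come from RefSeq windows on GRCh38.p14, each from 250 bases before to 50 after a start site. Capitals mark TTTCGCGC, TTTGGCGC, TTTCCCGC or TTTGCCGC on either strand, and the stretch reads 5′ to 3′ along the gene's own strand.
MCM6 (chr2:135876492-135876625, minus strand): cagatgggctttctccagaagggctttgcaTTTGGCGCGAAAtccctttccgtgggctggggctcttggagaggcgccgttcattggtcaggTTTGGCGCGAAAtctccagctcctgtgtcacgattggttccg
POLA1 (chrX:24693751-24693818, plus strand): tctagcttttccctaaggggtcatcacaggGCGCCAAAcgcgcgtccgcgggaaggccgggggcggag
RFC3 (chr13:33818064-33818131, plus strand): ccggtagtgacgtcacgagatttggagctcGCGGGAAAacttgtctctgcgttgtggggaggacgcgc
POLA2 (chr11:65261879-65261946, plus strand): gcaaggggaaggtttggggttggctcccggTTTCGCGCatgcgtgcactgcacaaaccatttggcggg
E2F1 (chr20:33686386-33686448, minus strand): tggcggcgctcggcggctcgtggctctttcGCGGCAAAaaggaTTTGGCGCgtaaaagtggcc

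MCM6 held 4 matches as 2 overlapping pairs, in each of which TTTGGCGC shares bases with TTTCGCGC on the other strand. Of the 45 members, 39 matched a window by symbol, and MCM4, MCM5, GINS4, RPA2, RPA3 and CCNE2 did not. At least 1 of the E2F letter strings stood in 22 of 39 members (56.4%) and in 3.99% of the 27305 genes of the table. It stood in 7 of the 13 members called higher in MG4d (53.8%) and in 14 of 25 other kept members (56.0%). RRM2, MCM10 and PRIM1, the largest rises in MG4d, held no such string, nor did POLD1, the largest called fall in xenografts. CCAAT was found in 24 of 39 members (61.5%) against 39.7% of all genes, and TTTGAA, the core letters of the CHR element of mitotic promoters, in DUT and RRM1 alone (5.13%) against 18.2%. A match describes letters and shows no binding.

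Between 13952 and 18430 probes were detected per array. ERBB2, GRB7, EPCAM, KRT8, KRT18, KRT19 and CDH1, which mark HER2-positive epithelial cells, were detected on all 12 arrays, and PGR on 0. ESR1, labelled absent, was detected on 12 arrays at low levels of 6.12 to 7.86. The polyHEMA arrays stood apart: replicates differed by at least 2-fold in 4193 genes in PH4d and 3345 in PH7d, against 15 to 216 genes in the other groups. Of the 43 members, 11 in PH4d and 20 in PH7d were at least 2-fold apart, and 0 in any other group. In PH7d, 35 members were higher on replicate 2 than on replicate 1, with a median replicate 1 minus replicate 2 of -0.79. The linear model in limma shares 1 spread over all arrays, so counts are also given without the 4 polyHEMA arrays.

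**Figure D1:**
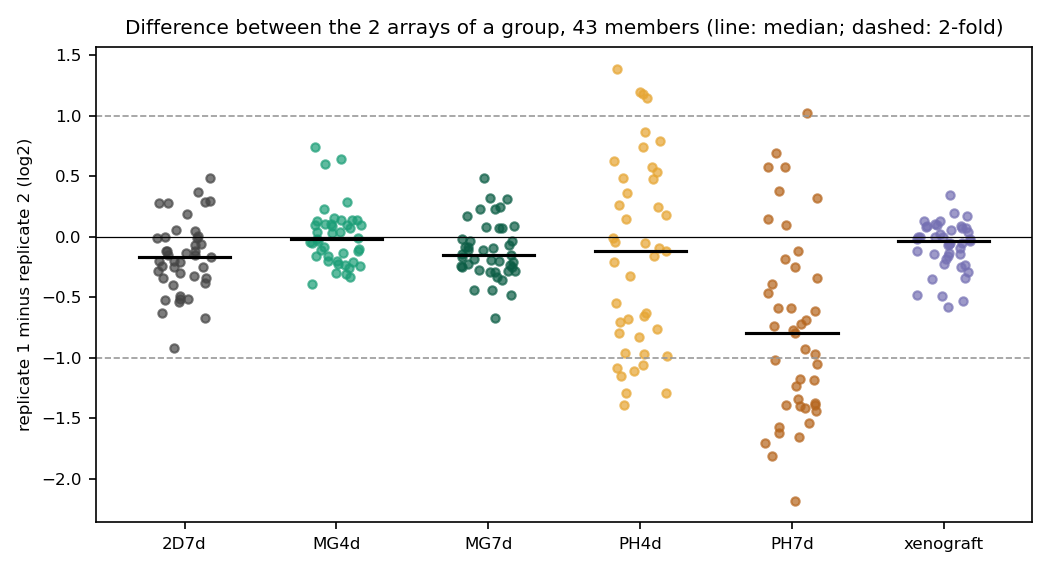
Replicate 1 minus replicate 2 (log2 scale) of each of the 43 members, by group, with the median as a line and 2-fold limits dashed. Points of 2D7d, MG4d, MG7d and xenograft stay inside the limits, while 11 members of PH4d and 20 of PH7d lie on or beyond them, 19 of the latter higher on replicate 2.

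Most replication genes, but not all, were higher after 4 days in Matrigel than after 7 days in monolayers. Of 43 members, 30 had a positive difference and 13 a negative one. Both MG4d arrays lay above both 2D7d arrays for 29 members and below for 9, against 40.5% and 44.9% of all genes. No monolayer was taken at another day, so model and day cannot be told apart in MG4d, PH4d or xenografts against 2D7d. In MG4d, 13 of 43 members were called higher than in 2D7d and 0 lower (limma, adjusted p under 0.05 and at least 2-fold), where 10.2% of all genes were called higher and 11.5% lower. Without the adjustment, 17 members had a p under 0.05 as higher and 0 as lower, against 23.7% and 24.5% of all genes. The median log2 difference was 0.53 over the members and -0.07 over all genes, and 0.51 with CDC6, which was not detected in 2D7d, at its bound. The largest rises were those of RRM2, MCM10 and PRIM1. The values that follow are given for replicate 1 and then replicate 2.

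RRM2, the small subunit of ribonucleotide reductase, read 8.33 and 8.46 in 2D7d, 10.47 and 10.72 in MG4d, 8.68 and 8.77 in MG7d, 9.97 and 8.82 in PH4d, 8.27 and 8.86 in PH7d, and 9.92 and 9.72 in xenografts. The MG4d arrays were the highest of the 12, with the xenografts and the first PH4d array next. RRM2 rose by 2.20 ± 0.37 (SE) on the log2 scale in MG4d, 4.59-fold (adjusted p = 0.0136, limma). RRM1, the large subunit, read 9.14 and 8.65 in 2D7d, 10.59 and 10.62 in MG4d, 10.26 and 10.01 in MG7d, 9.75 and 8.55 in PH4d, 8.48 and 8.38 in PH7d, and 10.06 and 9.93 in xenografts. All Matrigel and xenograft arrays of RRM1 lay above all 2D7d and PH7d arrays. Its rise in MG4d was 1.71 ± 0.36 (adjusted p = 0.0204).

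MCM10, which helps to switch on the loaded helicase, read 7.15 and 7.27 in 2D7d, 9.25 and 9.55 in MG4d, 8.21 and 8.64 in MG7d, 7.90 and 7.16 in PH4d, 7.72 and 7.57 in PH7d, and 8.11 and 8.27 in xenografts. MG4d was highest, MG7d and xenografts overlapped below it, and PH4d overlapped 2D7d at the lowest levels. MCM10 rose 4.56-fold in MG4d (log2 difference 2.19 ± 0.29, adjusted p = 0.0101). PRIM1, the catalytic subunit of primase, read 7.56 and 7.79 in 2D7d, 9.58 and 9.44 in MG4d, 8.25 and 8.50 in MG7d, 8.02 and 7.53 in PH4d, 7.28 and 7.40 in PH7d, and 7.92 and 8.25 in xenografts. Only the MG4d arrays of PRIM1 exceeded 9, and the rise was 1.84 ± 0.25 (adjusted p = 0.0101).

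**Figure D2:**
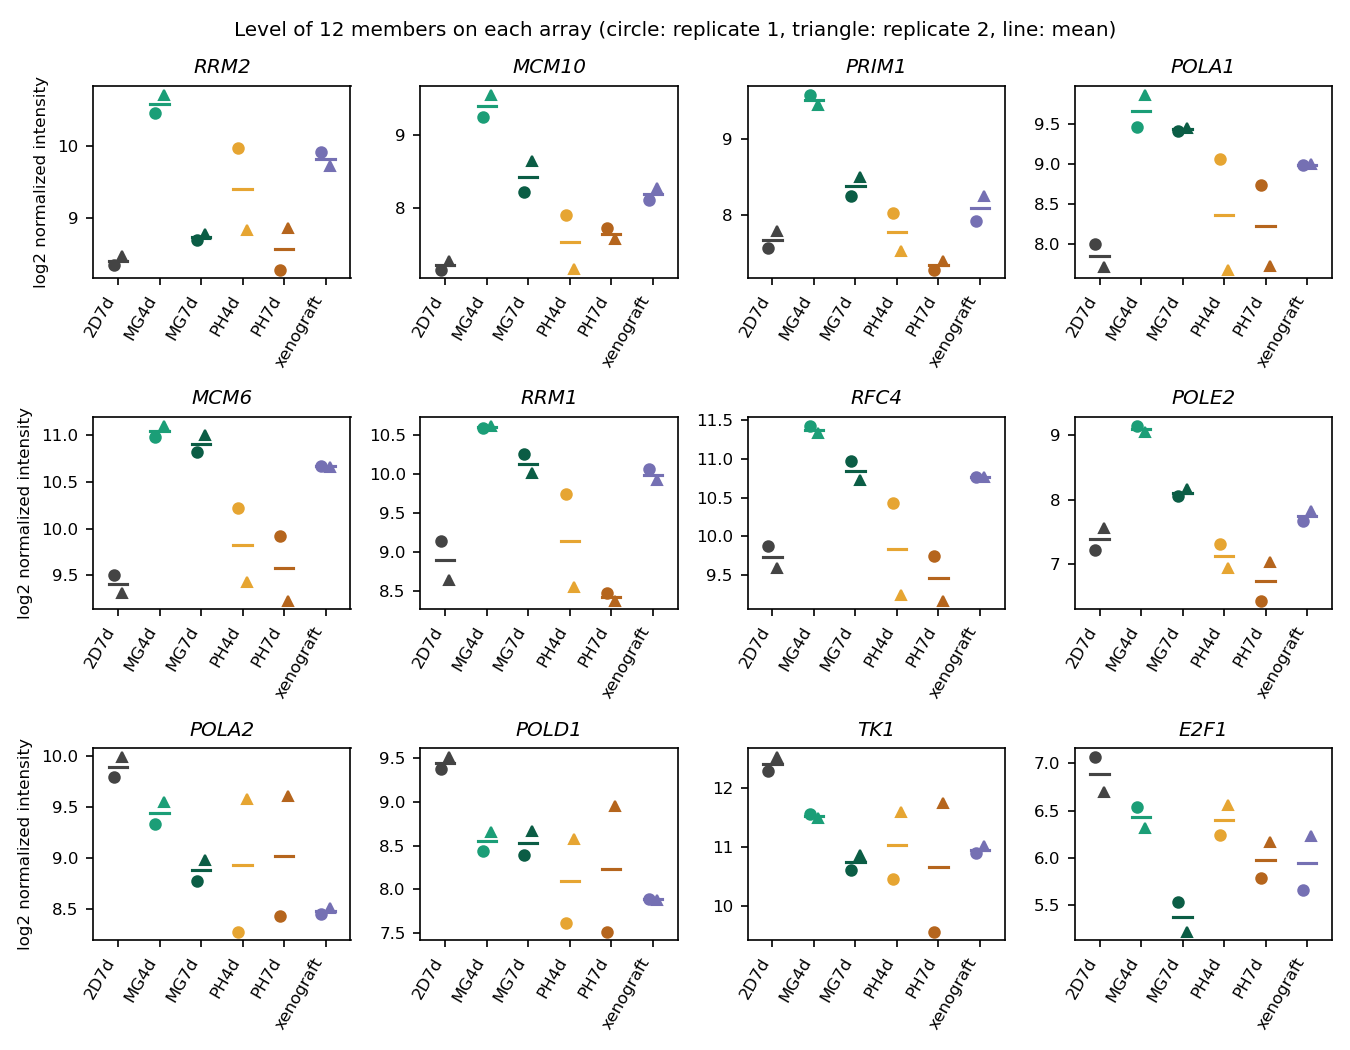
Level (log2 normalized intensity, a separate axis for each gene) of 12 members on each array, with circles for replicate 1, triangles for replicate 2 and a line at the group mean. The first 8 genes peak in MG4d, as RRM2 does at 10.47 and 10.72, while POLA2, POLD1, TK1 and E2F1 are highest in 2D7d, as TK1 is at 12.28 and 12.53.

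Among the licensing genes, MCM6, GMNN (geminin, the inhibitor of CDT1) and CDC6 were called higher in MG4d. MCM6 rose by 1.64 ± 0.32 (adjusted p = 0.0177) and GMNN by 1.53 ± 0.37 (adjusted p = 0.0261). CDC6 was at least 1.23-fold higher, a lower bound because neither 2D7d array detected it. Its call rests on the unbounded log2 difference of 1.36 (adjusted p = 0.014, limma), and the bound is below 2-fold. CDC6 was detected on 4 arrays, those in Matrigel, and so passed the detection filter only through groups where it was high. The other 8 licensing genes ORC1, ORC6, CDT1, MCM2, MCM3, MCM4, MCM5 and MCM7 were not called and ranged from -0.77 (MCM5) to 0.87 (MCM4).

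In the clamp and its loader, PCNA, RFC3 and RFC4 were called higher, by 1.11, 1.38 and 1.64, and RFC2 (-0.39) and RFC5 (0.53) were not called. PCNA read 10.26 and 10.47 in 2D7d, 11.62 and 11.33 in MG4d, 10.66 and 10.73 in MG7d, 10.59 and 10.33 in PH4d, 9.63 and 10.40 in PH7d, and 10.91 and 11.09 in xenografts. MG4d and xenograft arrays of PCNA lay above the rest, and the first PH7d array was the lowest. Of the polymerase genes, POLA1, POLE2 and PRIM1 were called higher, while POLA2, POLD1 and POLE lay between -0.90 and -0.45 with none called. RPA1, of the single-strand binding protein, rose by 1.05 ± 0.25 (adjusted p = 0.0254), and RPA2 (0.51) and RPA3 (-0.19) were not called.

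CDC45 and the GINS subunits GINS2, GINS3 and GINS4 were not called, at -0.14 to 0.90. Neither FEN1 (0.63) nor LIG1 (-0.90), which finish lagging strand fragments, was called. TYMS, TK1 and DUT lay between -0.88 and 0.94. The chromatin genes CHAF1A, CHAF1B and UHRF1 lay between -0.26 and 0.49, and CCNE1, E2F1 and CDC25A between -0.46 and 0.56. HPRT1, often used as a reference gene, was the 1 of 8 housekeeping genes tested that was called higher, by 1.33 in MG4d and 1.17 in MG7d, and the median of the 8 was -0.08 in MG4d. ERBB2, the HER2 gene, was called lower in MG4d (-1.37) as the 1 of 7 epithelial markers called, and the median of the 7 was -0.68. Of the leukocyte markers CSF1R was called lower, and CD68 and the endothelial marker PECAM1 were not called. The part of these in the result was not tested.

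Without the polyHEMA groups the same comparison called 13 members higher and 0 lower, against 22% and 17.5% of all genes, and these were the same 13 members. POLD1 (-0.90), LIG1 (-0.90), TK1 (-0.88), POLE (-0.79), MCM5 (-0.77) and POLA2 (-0.45) were lower there by less than 2-fold. Their adjusted p-values were at most 0.0286 (POLA2, limma). In the fit of 12 arrays, leaving out any 2D7d or MG4d array left 1 array in that group. This ended the calls of the members as it did those of all other genes. With any 1 array left out, the log2 differences of the 13 members ran from 0.91 (RPA1) to 2.34 (MCM10). Without the polyHEMA groups and any further array, only PCNA and RPA1 of the 13 lost their call at least once. In some of these fits members with a negative difference were called lower. The shares of all genes called stayed near those of the fit without the polyHEMA groups.

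**Figure D3:**
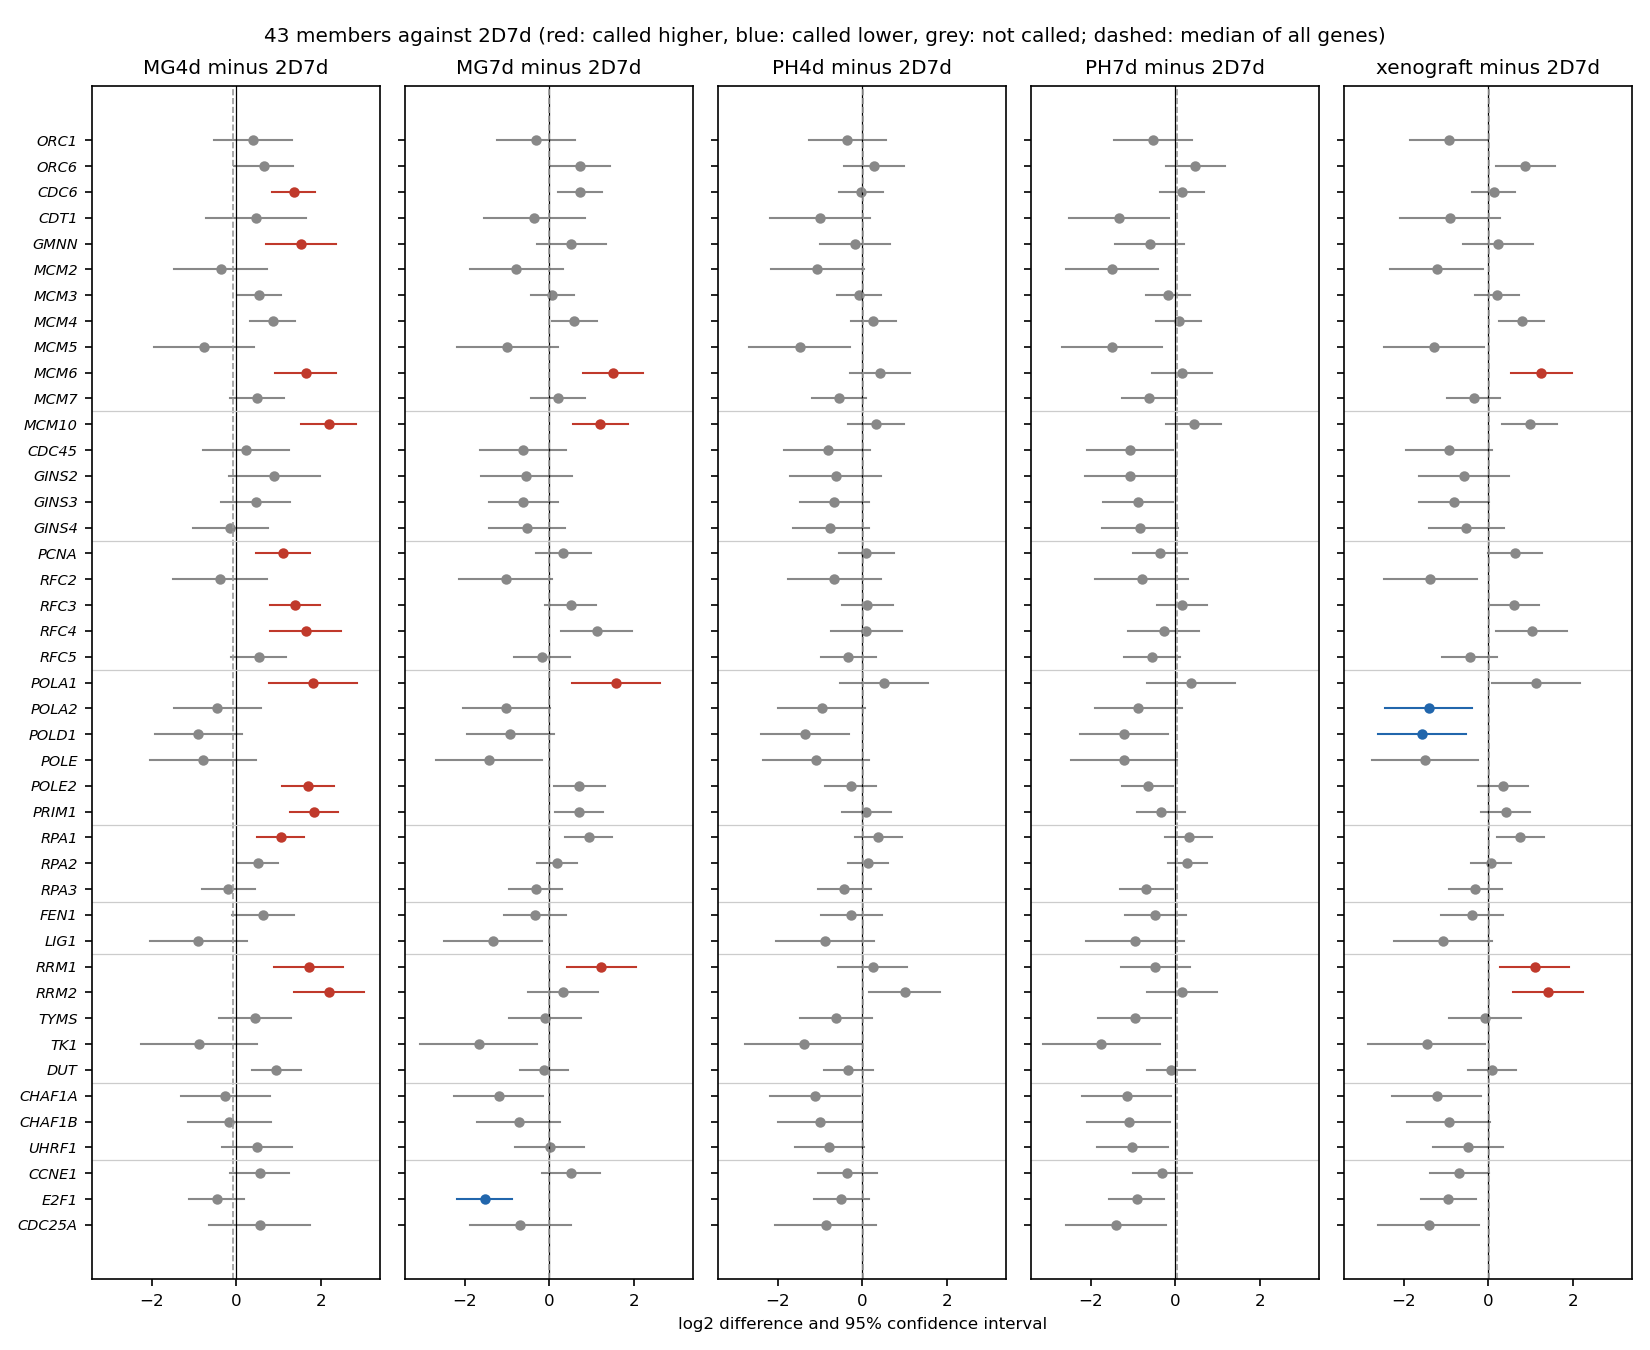
Log2 difference from 2D7d and its 95% confidence interval (limma) for the 43 members in 5 comparisons, ordered by role with grey lines between roles. Red and blue mark members called higher or lower, grey the others, and the dashed line is the median of all genes. The 13 red points of MG4d thin to 4 in MG7d and 3 in xenografts, and polyHEMA has 0 coloured points.

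At day 7 in Matrigel fewer members were called above monolayers than at day 4. In MG7d, 4 of 43 members were called higher than in 2D7d (MCM6, MCM10, POLA1, RRM1) and 1 lower (E2F1), where 10.8% of all genes were called higher and 10.3% lower. The members' median was -0.13 and that of all genes -0.01. POLA1, the catalytic subunit of polymerase alpha, read 8.0 and 7.71 in 2D7d, 9.47 and 9.87 in MG4d, 9.42 and 9.45 in MG7d, 9.06 and 7.68 in PH4d, 8.74 and 7.72 in PH7d, and 8.99 and 9.0 in xenografts. The replicate 1 arrays of polyHEMA sat with the xenografts and the replicate 2 arrays with 2D7d. POLA1 was 2.99-fold higher in MG7d (log2 difference 1.58 ± 0.46, adjusted p = 0.0435).

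MCM6, a subunit of the helicase ring, read 9.50 and 9.31 in 2D7d, 10.98 and 11.10 in MG4d, 10.82 and 11 in MG7d, 10.22 and 9.43 in PH4d, 9.92 and 9.23 in PH7d, and 10.67 and 10.66 in xenografts. Every Matrigel and xenograft array exceeded every 2D7d and polyHEMA array, and the differences from 2D7d were 1.5 ± 0.32 in MG7d (adjusted p = 0.0278) and 1.26 ± 0.32 in xenografts (adjusted p = 0.0245). E2F1, a transcription factor that drives S phase entry, read 7.07 and 6.70 in 2D7d, 6.54 and 6.32 in MG4d, 5.53 and 5.22 in MG7d, 6.24 and 6.56 in PH4d, 5.79 and 6.17 in PH7d, and 5.66 and 6.23 in xenografts. The 2D7d arrays were the highest and the MG7d arrays, which did not detect it, the lowest. E2F1 was at least 2.29-fold lower in MG7d than in 2D7d (adjusted p = 0.022).

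Without the polyHEMA groups, 5 members were called higher in MG7d, the 4 above and RFC4, and 7 lower, against 23.6% and 17% of all genes. The 7 were RFC2 (-1.03), POLA2 (-1.01), POLE (-1.43), LIG1 (-1.33), TK1 (-1.67), CHAF1A (-1.19) and E2F1, with adjusted p-values of at most 0.00336 (RFC2). A further array left out gave 3 higher without the second 2D7d array, against 21.2% of genes, and 9 lower without the first, against 19.4%. TK1, the thymidine kinase of dividing cells, read 12.28 and 12.53 in 2D7d, 11.56 and 11.49 in MG4d, 10.61 and 10.86 in MG7d, 10.45 and 11.60 in PH4d, 9.56 and 11.74 in PH7d, and 10.89 and 11.01 in xenografts. No array outside 2D7d reached the 2D7d levels, and TK1 in PH7d was 2.18 lower on replicate 1 than on replicate 2. Leaving out any 2D7d, MG4d or MG7d array from the fit of 12 ended the calls of MG7d against 2D7d, and leaving out either xenograft array left E2F1 alone. Calls over all genes also fell steeply in these fits. With any 1 array left out, log2 differences ran from 0.99 (RRM1) to 1.73 (POLA1) for the 4 higher members. The unbounded difference of E2F1 ran from -1.70 to -1.33.

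From day 4 to day 7 in Matrigel nearly all members moved down together by modest amounts. Of 43 members, 42 had a negative difference of MG7d from MG4d and 38 had both MG7d arrays below both MG4d arrays, against 29.8% of all genes. The members' median was -0.62 and that of all genes 0.03. ORC6 (0.09 for its brighter probe and -0.59 for its other probe) was the exception, and under median scaling 41 of 43 were negative. In the fit of 12 arrays 0 members were called either way, where 0.729% of genes were called higher and 0.164% lower, although 15 members had an unadjusted p under 0.05, all lower, against 8.13% of genes higher and 4.40% lower. The lowest were RRM2 (-1.87 ± 0.37, adjusted p = 0.061), GINS2 (-1.44) and CDC25A (-1.23), the phosphatase that activates CDK2.

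Without the polyHEMA groups 8 members were called lower at day 7 and 0 higher, against 1.58% and 4.05% of all genes. They were RRM2 (-1.87), GINS2 (-1.44), CDC25A (-1.23), PRIM1 (-1.14), GINS3 (-1.08), DUT (-1.07), E2F1, which was at least 1.66-fold lower, and GMNN (-1.01), whose adjusted p of 0.0167 was the highest of the 8. Leaving out a further array gave 5 to 11 calls, 5 without the first MG7d array (1.49% of genes) and 11 without the second (2.43%). GINS2, of the complex that completes the active helicase, read 10.09 and 10.76 in 2D7d, 11.34 and 11.30 in MG4d, 9.73 and 10.02 in MG7d, 9.52 and 10.07 in PH4d, 8.60 and 10.13 in PH7d, and 9.59 and 10.11 in xenografts. MG4d alone stood above every other array. In polyHEMA, day 7 minus day 4 had a median of -0.18 with 34 negative members, and 0 members were called higher or lower, as were 0% and 0% of all genes, with 1 member lower and 0 higher at an unadjusted p under 0.05 (0.456% and 0.684% of genes). The difference between the day effects in Matrigel and polyHEMA passed an adjusted p of 0.05 for 0 members (4 at an unadjusted p under 0.05) and 3 of 10970 genes in limma. Replicates of the same number deviated together in PH4d and PH7d. With the number as a block in polyHEMA only, a setting chosen after seeing the data, polyHEMA still had 0 members called between days, and the difference between the day effects passed for 2 members, against 5.23% of genes: DUT (-1.30, Matrigel minus polyHEMA, adjusted p = 0.0127) and RFC3 (-0.91, adjusted p = 0.0484). Another probe of DUT rose from MG4d to MG7d, by 0.75. A probe of RFC3 detected on 3 arrays rose by 0.30, while the probe used gave -0.88 and the remaining one -1.16.

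On polyHEMA most members lay below monolayers, by amounts that depended on the replicate. Against 2D7d, 30 of 43 members had a negative difference in PH4d and 33 in PH7d, with medians of -0.36 and -0.61, beside 0.03 and 0.05 over all genes. Both polyHEMA arrays lay below both 2D7d arrays for 22 members in PH4d and 23 in PH7d, against 26.6% and 27.8% of all genes. No member was called: 0 higher and 0 lower in PH4d, where 2.58% and 1.84% of genes were called, and 0 and 0 in PH7d, where 3.87% and 2.36% were. At an unadjusted p under 0.05 there were 1 higher and 4 lower members in PH4d (11.8% and 12.1% of genes), and 0 and 15 in PH7d (13% and 12.2%) in limma. The largest differences were those of MCM5 (-1.48 ± 0.53 in PH4d) and TK1 (-1.75 ± 0.61 in PH7d), and the only member at an adjusted p under 0.10 was E2F1 in PH7d (0.0971). PECAM1, the 1 of 4 endothelial markers tested, was called higher than 2D7d in PH4d (1.82) and PH7d (1.64) and higher than Matrigel at both days (1.12 and 1.46), while VWF and KDR were detected on 0 arrays and CDH5 on 2, and its part in the members' levels was not tested.

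POLD1, the catalytic subunit of polymerase delta, read 9.38 and 9.52 in 2D7d, 8.44 and 8.66 in MG4d, 8.39 and 8.67 in MG7d, 7.61 and 8.58 in PH4d, 7.51 and 8.95 in PH7d, and 7.89 and 7.87 in xenografts. All other arrays lay below 2D7d, and replicate 1 of both polyHEMA groups lay below every other array while replicate 2 did not. With both polyHEMA arrays numbered 2 left out, 2 members were called higher and 15 lower in PH4d (25.3% and 20.1% of genes), and 22 lower in PH7d (17.9%). With both numbered 1 left out, 0 members were called lower in PH4d (3.30% of genes) or in PH7d (3.45%). These fits assume that the lone polyHEMA array of a group varies like the other groups. In PH7d, leaving out replicate 2 alone called 22 members lower, against 12.3% of genes, and in PH4d leaving out replicate 2 alone called 2 higher and 8 lower, against 20% and 17.5% of genes.

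Members were lower on polyHEMA than in Matrigel at the same day. In PH4d, 12 of 43 members were called lower than in MG4d and 0 higher, where 3.91% of all genes were called lower and 8.33% higher, and 42 members had a negative difference. Both PH4d arrays lay below both MG4d arrays for 35 members, against 24.7% of all genes, and the median was -0.91 (-0.03 over all genes; -0.89 with CDC6 at its bound). At an unadjusted p under 0.05, 27 members were lower and 0 higher, against 12.5% and 16.5% of all genes. Of 7 epithelial markers, ERBB2 (1.37) and CDH1 (1.02) were called higher in PH4d than in MG4d, as was the leukocyte marker CSF1R (1.53).

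POLE2, an accessory subunit of polymerase epsilon, read 7.22 and 7.56 in 2D7d, 9.14 and 9.04 in MG4d, 8.05 and 8.16 in MG7d, 7.31 and 6.95 in PH4d, 6.44 and 7.04 in PH7d, and 7.67 and 7.82 in xenografts. Its polyHEMA and Matrigel arrays did not overlap, and it fell by 1.96 ± 0.27 in PH4d (adjusted p = 0.00221) and by 1.37 ± 0.27 in PH7d (adjusted p = 0.0136). MCM10 had the next largest fall in PH4d, by 1.86 ± 0.29 (adjusted p = 0.00416). PRIM1 fell by 1.74, GMNN by 1.71, RFC4 by 1.55, RRM1 by 1.46, DUT, which removes dUTP, by 1.27, RFC3 by 1.26, MCM6 by 1.21, MCM7 by 1.04 and PCNA by 1.01. CDC6, not detected in PH4d, was at least 1.61-fold lower, a bound below 2-fold, and its call rests on the unbounded difference (adjusted p = 0.0054, limma).

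In PH7d, 5 members were called lower than in MG7d (MCM6, RFC4, POLE2, PRIM1 and RRM1) and 0 higher, where 3.84% and 5.57% of genes were called. At an unadjusted p under 0.05, 15 members were lower and 0 higher, against 12.1% and 14.8% of genes. The median was -0.43, beside -0.02 over all genes (-0.38 with CDC6 and E2F1 at their bounds). RFC4, a small subunit of the clamp loader, read 9.87 and 9.59 in 2D7d, 11.43 and 11.33 in MG4d, 10.97 and 10.73 in MG7d, 10.43 and 9.24 in PH4d, 9.75 and 9.17 in PH7d, and 10.77 and 10.77 in xenografts. The 2D7d and PH7d arrays of RFC4 overlapped and lay below Matrigel. RRM1 fell by 1.70 ± 0.36 (adjusted p = 0.0198) and RFC4 by 1.39 ± 0.37 (adjusted p = 0.0464).

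Which polyHEMA arrays were used changed these counts. Without both numbered 2, 21 members were called lower in PH4d than in MG4d (6.92% of genes) and 19 in PH7d than in MG7d (7.67%). Without both numbered 1 the counts were 15 (21.8% of genes) and 5 (21.8%), and 3 were called higher in PH7d (17.2%). With only the arrays of the 2 groups compared, 0 members were called lower in either comparison. Leaving out an array in turn gave 3 to 20 lower calls in PH4d, 3 without either MG4d array (0.665% or 0.766% of genes), 7 without either xenograft array (2.42%) and 20 without either PH7d array (5.63%), and POLE2 and PRIM1 were called each time. In PH7d against MG7d it gave 0 to 7, 0 without either MG7d array (0.62% or 0.711% of genes) and 2 without either 2D7d, MG4d or xenograft array (2.37% to 2.86%). HPRT1 was the 1 of 8 housekeeping genes called lower in these comparisons, by -1.35 in PH4d and -1.48 in PH7d, and the medians of the 8 were -0.06 and -0.24.

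**Figure D4:**
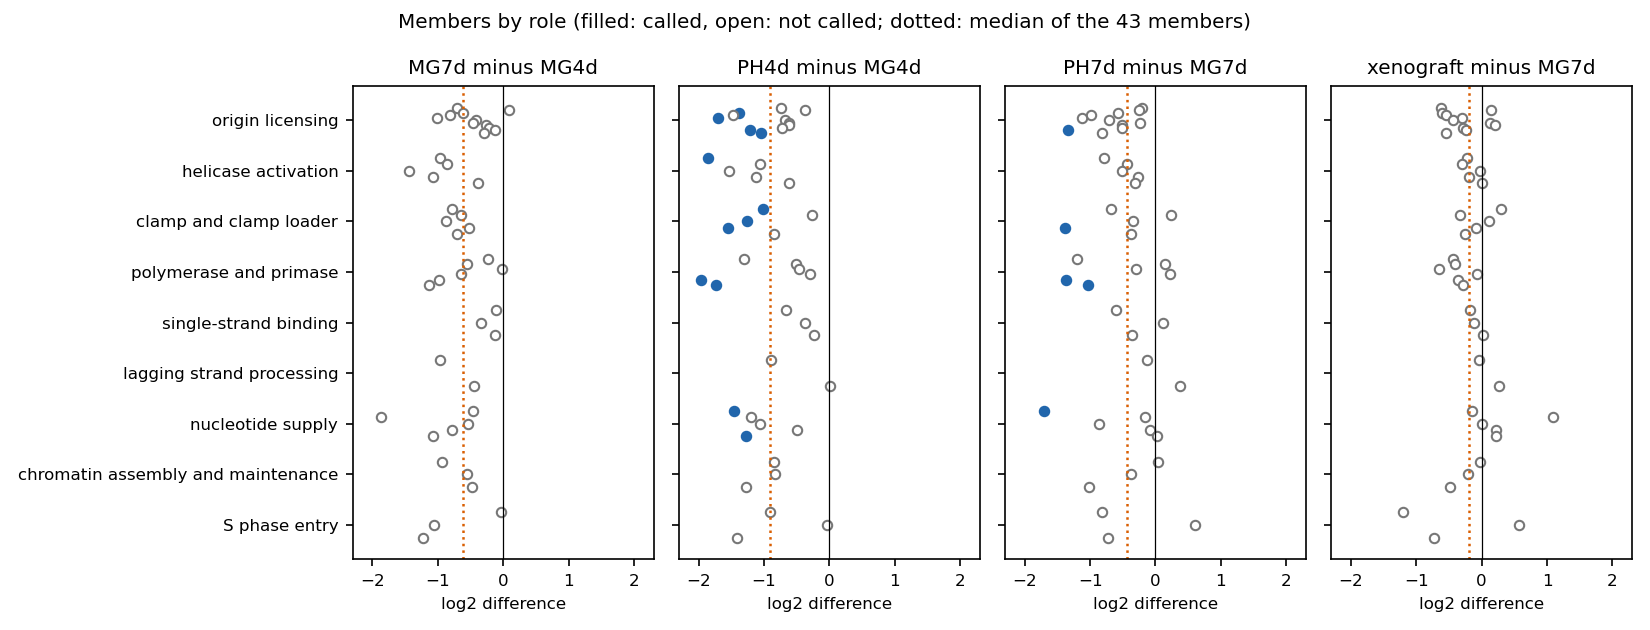
Log2 difference of each member between models or days, by role, filled where limma called it and open otherwise, with the members' median dotted. Points lie left of 0 for 42 of 43 members in both MG7d against MG4d and PH4d against MG4d, and the filled points (12 in PH4d against MG4d, 5 in PH7d against MG7d) are all lower.

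Xenografts held members above and below monolayers. With all arrays in the fit, members were called less often than all genes in both directions. Against 2D7d, 3 of 43 members were called higher (RRM2, MCM6, RRM1) and 2 lower (POLD1, POLA2), where 16.4% of all genes were called higher and 14.7% lower. The median was -0.38, beside 0.01 over all genes. RRM2 rose by 1.42 ± 0.37 (adjusted p = 0.0261) and RRM1 by 1.10 ± 0.36 (adjusted p = 0.044). POLD1 fell by 1.57 ± 0.46 (adjusted p = 0.0337). POLA2, the regulatory subunit of polymerase alpha, read 9.79 and 9.99 in 2D7d, 9.33 and 9.55 in MG4d, 8.78 and 8.98 in MG7d, 8.28 and 9.58 in PH4d, 8.43 and 9.61 in PH7d, and 8.45 and 8.51 in xenografts. The xenograft and first polyHEMA arrays were the lowest and 2D7d the highest, and POLA2 fell by 1.41 ± 0.46 in xenografts (adjusted p = 0.0423).

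Without the polyHEMA groups, 5 members were called higher in xenografts (MCM6, RFC4, POLA1, RRM1 and RRM2) and 10 lower, against 25.4% and 18.4% of all genes. The 10 were POLD1 (-1.57), POLE (-1.5), TK1 (-1.45), POLA2 (-1.41), CDC25A (-1.41), RFC2 (-1.37), MCM5 (-1.27), MCM2 (-1.22), CHAF1A (-1.22) and LIG1 (-1.07), with adjusted p-values of at most 0.000863 (LIG1). A further array left out gave 3 to 6 higher, 3 without the second 2D7d array (23.3% of genes), and 9 to 13 lower, 13 without the first 2D7d (20.8%) or second xenograft array (18.9%). In some complexes the highest and lowest subunits had opposite signs. POLA1 stood at 1.14 and POLA2 at -1.41, MCM6 at 1.26 and MCM5 at -1.27, and RFC4 at 1.03 and RFC2 at -1.37, and the difference between subunits was not tested. In others the signs agreed: GINS2 (-0.57), GINS3 (-0.81) and GINS4 (-0.52), CHAF1A (-1.22) and CHAF1B (-0.93), and RRM1 (1.1) and RRM2 (1.42). In the fit of 12 arrays, leaving out either 2D7d or either xenograft array ended the calls, and leaving out either MG4d or MG7d array left MCM6 and RRM2 alone. Leaving out either array of a polyHEMA group gave more calls in both directions. With any 1 array left out, log2 differences ran from 0.85 (RRM1) to 1.52 (RRM2) for the 3 higher members. For the 2 lower members they ran from -1.64 (POLD1) to -1.31 (POLA2).

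DCN, a fibroblast gene, was detected on the xenograft arrays alone (7.66 and 7.97). Of 6 fibroblast markers, LUM was detected on 3 arrays, COL1A2 and COL3A1 on 1, COL1A1 on 12 and PDGFRB on 0, and of 4 leukocyte markers PTPRC and CD3E were detected on 0 and CD68 and CSF1R on 12. CD68, a macrophage gene, read 9.05 and 8.95 in xenografts and 7.94 and 7.82 in 2D7d and was called higher there (1.12), while CSF1R was not called. The epithelial gene GRB7, which lies beside ERBB2, was called lower (-1.22). The median level of the 3 fibroblast markers tested was 6.87 and 7.26 in xenografts and 4.63 to 6.32 in the other arrays. The part of host RNA in the members' levels was not tested.

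Xenografts differed from MG7d in 0 called members, either way, where 3.32% of genes were called higher and 2.44% lower. At an unadjusted p under 0.05, 1 member was higher and 2 lower (9.04% and 8.33% of genes), and the median was -0.19 (-0.02 over all genes). Without the polyHEMA groups RRM2 was called higher (1.09, adjusted p = 0.000612) and CCNE1 lower (-1.20, adjusted p = 0.000315, limma), against 5.93% and 4.88% of genes. CCNE1, cyclin E1, which drives S phase entry with CDK2, read 10.05 and 10.21 in 2D7d, 10.58 and 10.79 in MG4d, 10.55 and 10.74 in MG7d, 9.45 and 10.10 in PH4d, 9.46 and 10.20 in PH7d, and 9.49 and 9.42 in xenografts. The Matrigel arrays of CCNE1 were the highest, and the xenografts shared the lowest levels with the first polyHEMA arrays.

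The brightest members of the lagging strand, single-strand binding and chromatin roles were FEN1, RPA3 and UHRF1. FEN1, which cuts the flaps of lagging strand fragments, read 11.37 and 11.71 in 2D7d, 12.06 and 12.27 in MG4d, 11.02 and 11.38 in MG7d, 11.23 and 11.33 in PH4d, 10.58 and 11.56 in PH7d, and 11.13 and 11.18 in xenografts. RPA3 read 11.70 and 11.41 in 2D7d, 11.43 and 11.31 in MG4d, 11.27 and 11.20 in MG7d, 11.08 and 11.20 in PH4d, 10.48 and 11.27 in PH7d, and 11.19 and 11.32 in xenografts. Neither gene was called in any comparison, and the first PH7d array was the lowest for both. UHRF1, which keeps DNA methylation through replication, read 11.18 and 11.17 in 2D7d, 11.51 and 11.83 in MG4d, 11.04 and 11.33 in MG7d, 10.09 and 10.72 in PH4d, 9.65 and 10.69 in PH7d, and 10.88 and 10.53 in xenografts. Its polyHEMA arrays overlapped with the xenografts only and lay below Matrigel and 2D7d, without a call.

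Probes of a gene did not always move alike. ORC6, a subunit of the origin recognition complex, was read by its brighter probe at 13.92 and 13.93 in 2D7d, 14.62 and 14.52 in MG4d, 14.70 and 14.61 in MG7d, 14.64 and 13.77 in PH4d, 14.70 and 14.11 in PH7d, and 14.80 and 14.80 in xenografts, near the top of the arrays' scale. The other ORC6 probe differed from 2D7d by 0.80 in MG4d, where the brighter probe gave 0.65, and by -0.91 in xenografts, where the brighter gave 0.88. A probe of DUT gave -0.99 in MG4d while its other 2 probes gave 0.94 and 0.92. From MG4d to MG7d that DUT probe rose by 0.75, while the other 2 gave -1.07 and -0.98. It read 7.37 and 7.37 in MG4d and 7.77 and 8.55 in PH4d, opposite to the fall given above for DUT. For PCNA in xenografts the values were 0.63 and -0.07, and for MCM7 in MG4d its 3 probes gave 0.50, 1.46 and 1.29. These genes' directions hold for the probe named.

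Other cell cycle lists were counted in the same way beside the members. Against 2D7d, 10.2% of all genes were called higher and 11.5% lower in MG4d, and 10.8% and 10.3% in MG7d. The shares were 2.58% and 1.84% in PH4d, 3.87% and 2.36% in PH7d, and 16.4% and 14.7% in xenografts. Medians over all genes were -0.07, -0.01, 0.03, 0.05 and 0.01 in that order. Some list counts lay near or below these shares, such as those of the other replication and mitosis genes in xenografts. Of 36 other replication genes tested, 11 were called higher and 1 lower in MG4d than in 2D7d, with a median of 0.97. The largest rise was that of HELLS (2.31), a chromatin remodelling helicase, and the fall was that of POLD4 (-2.11), a small subunit of polymerase delta. In MG7d 5 were higher and 0 lower (median 0.66; largest MTBP, 1.77), in both polyHEMA groups 0 and 0 (medians 0.23 and 0.01), and in xenografts 5 and 2 (median 0.50), with TOPBP1 (2.36), which helps to fire origins, and RECQL4 (-1.72), a helicase of replication initiation, at the ends. The members' own medians were 0.53, -0.13, -0.36, -0.61 and -0.38 in the same order.

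Of 39 mitosis and G2/M genes, 11 were called higher and 0 lower in MG4d (median 0.96) and 8 and 0 in MG7d (median 0.36), with the kinase TTK the largest in both, at 2.38 and 2.28. In PH7d 34 of 39 had a negative difference (median -0.78) with 0 called, and in xenografts 2 were higher (largest KIF11, a spindle motor, 1.95) and 1 lower (PLK1, a mitotic kinase, -1.92). Among 17 E2F and pocket protein genes, 5 were higher in MG4d, 6 in MG7d and 4 in xenografts, and 1 was lower, MYBL2 (-1.57), in xenografts. The pocket protein gene RBL1 led in MG4d (2.83) and MG7d (2.28), and RBL2 in xenografts (2.73). Of 11 CDK inhibitor and antiproliferative genes, 1 was higher in MG4d, 1 higher and 1 lower in MG7d, 3 higher and 1 lower in PH4d, 3 higher in PH7d and 4 higher in xenografts. CCNG2, a cyclin G family gene tied to growth arrest, led in MG4d (1.51), MG7d (2.25), PH4d (2.27) and xenografts (2.71), and CDKN2B, which encodes the inhibitor p15, in PH7d (2.71), while GAS1 fell by 1.30 in MG7d and GADD45A by 1.65 in PH4d.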

How the data were processed

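Total RNA of 12 samples was hybridised to Illumina HumanHT-12 v4 beadchips. The authors deposited intensity values for 47323 probes, without background subtraction, each with a detection p-value. A processed log2 table was also deposited by the authors after quantile normalization in lumi, whose version is not given in the sources used here. Of its rows, 38524 (81.41%) carried another probe ID than the intensity row of equal rank on every array, so it served only as an alternative, with rows matched by rank. How it treats low signal is not known, and each column has a median of 7.391.

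Intensities were processed here with neqc of limma 3.58.1 (R 4.3.3), which takes the background from the detection p-values, applies normexp, adds an offset of 16, quantile-normalizes and takes log2. Of the probes, 30113 had 1 gene symbol, 8 had several and 17202 were unnamed here, and 18308 passed the detection filter. Group means over the 12 arrays were estimated with lmFit and eBayes (6 residual and 3.17 prior degrees of freedom). P-values were adjusted by Benjamini-Hochberg over 10970 genes in each comparison. Calls needed adjusted p-values below 0.05 with a change of 2-fold or more. The comparisons with 2D7d share its arrays. For a gene undetected in both replicates of a group, the fold is a bound: the dim level was taken, array by array, as the dimmest signal detected there, or as that gene's own value where this was higher. Calls of such genes rest on the unbounded difference, so a bound can lie below 2-fold. Having 2 arrays per group limits precision throughout.

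The members and lists were chosen with earlier results of these data known. Levels on every array are given for the 3 members called with the largest rise and fall in each comparison with 2D7d, the brightest member of each role, and the 2 largest calls per direction elsewhere. Genes of other lists are named as the largest call of their list. Members called only without the polyHEMA groups were named after their values were seen. The fit was tried on simulated data with the same spread in every group, so the wider spread of the polyHEMA replicates was not covered. Alternatives were other background corrections, scaling, offsets, filters and probe rules, array weights, fewer arrays and a replicate block.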

Additional observations from a re-analysis of the deposited data

Results flagged for a closer look

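The GINS1 probe, left out by the detection filter, was detected on 2 of 12 arrays, the first MG4d and the first xenograft array, and on neither 2D7d array.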

How the results depend on the processing

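Every called member kept its direction under every alternative and every array left out. Of the 13 calls of MG4d against 2D7d, 10 held under all 11 alternatives, as did 1 of 5 in MG7d and 2 of 5 in xenografts, while under the 10 alternatives that apply there 0 of 12 held in PH4d against MG4d and 0 of 5 in PH7d against MG7d. Counts of called members that moved by over 1.5 times follow, and the cause was not tested. The share of all genes called moved with the setting too, so a count without its share is no result about the members. For MG7d against 2D7d (4 higher, 1 lower), the authors' processed values gave 2 and 0, against 3.56% and 4.25% of genes. No background correction gave 0 lower (7.8% of genes) and no filter on dim probes 2 higher (2.17%). A replicate block gave 6 lower (15.7%), and array weights, the 2 groups alone or no polyHEMA groups gave 7 lower (17% each). Leaving out polyHEMA arrays by number also gave more lower calls. For xenografts against 2D7d (3 and 2), no filter gave 0 lower. The replicate block, array weights, the 2 groups alone and no polyHEMA groups gave 5 higher and 10 lower. Without the polyHEMA groups the shares of all genes were 25.4% and 18.4%. Leaving out polyHEMA arrays by number also gave more calls both ways. For MG7d against MG4d (0 lower), the authors' values and no background correction gave 1 lower. Array weights, the 2 groups alone and no polyHEMA groups gave 8, where 1.58% of genes were called lower without the polyHEMA groups. Leaving out polyHEMA arrays by number also gave more lower calls. For polyHEMA against 2D7d (0 lower), the replicate block gave 1 lower in PH4d and 3 in PH7d, and without the arrays numbered 2 there were 2 higher and 15 lower in PH4d, 22 lower in PH7d and 2 lower in PH7d against PH4d. For PH4d against MG4d (12 lower), array weights gave 2, the 2 groups alone 0 and no arrays numbered 2 gave 21. For PH7d against MG7d (5 lower), the authors' values, no background correction and median scaling gave 3, array weights 1, the 2 groups alone 0, no arrays numbered 2 gave 19, and no arrays numbered 1 gave 3 higher. For xenografts against MG7d (0 and 0), 1 was lower with the authors' values, no background correction, an offset of 50 and the replicate block, and 1 higher and 1 lower with array weights, the 2 groups alone and fewer polyHEMA arrays. Fits that left out polyHEMA arrays by number, or further arrays without the polyHEMA groups, were chosen after seeing the data. Leaving out an array in turn, with or without the polyHEMA groups, gave 0 to 13 higher and 0 to 3 lower in MG4d, 0 to 6 and 0 to 9 in MG7d, 0 to 2 and 0 to 8 in PH4d, 0 to 0 and 0 to 22 in PH7d, 0 to 6 and 0 to 13 in xenografts, all against 2D7d. The array left alone in its group was assumed to vary like the others. The same gave 0 to 11 lower for MG7d against MG4d, 3 to 20 for PH4d and 0 to 7 for PH7d against Matrigel, and 0 to 1 each way for xenografts against MG7d. Replicate numbers did not pair the samples across all groups: the correlation over all genes of replicate 1 minus replicate 2 was 0.87 between PH4d and PH7d and ran from -0.12 to 0.45 between other groups. Over the members alone it ran there from -0.52 (MG4d with xenografts) to 0.68 (2D7d with PH7d), and was 0.59 for 2D7d with PH4d. Replicates of PH4d and PH7d deviated together, and with a replicate block in polyHEMA only, 0 members were called between their days. Under median scaling the median of all genes rose by 0.16 to 0.21 in MG7d, PH4d, PH7d and xenografts against 2D7d, and the members' medians were -0.12, -0.33, -0.47 and -0.42. No chip was named in the tables, so a chip block was not run.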
